A study of Mus musculus with 3 samples.

Results

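The genes of the lysosome that code for its hydrolases, its membrane proteins and its proton pump were followed in RAW264.7 macrophages challenged with LPS. The 43 members were set as a list of gene names, drawn up with earlier results of these data known, and all 43 were found among the 36870 gene names on the arrays, with 84 probes. By role they are 6 membrane proteins, 9 proteases, 9 glycosidases, 5 genes of lipid handling, 2 transcription factors and 12 genes of the proton pump, of which 6 belong to the V1 sector, 4 to the V0 sector and 2 are accessory subunits.

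Lysosomes are acidic compartments in which macromolecules, and in macrophages the bacteria taken up by phagocytosis, are broken down. The vacuolar ATPase, or V-ATPase, pumps protons into them: its V1 sector splits ATP in the cytosol and its V0 sector carries the protons through the membrane. The low pH is needed by the cathepsins, which cut proteins, and by the glycosidases and lipid hydrolases, while heavily glycosylated membrane proteins such as LAMP1 line the inner face. TFEB and TFE3 are transcription factors that switch on many of these genes through E-box sequences in their promoters.

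RAW264.7 cells are an established macrophage line of mouse origin. LPS, a cell wall component of Gram-negative bacteria, activates TLR4. RNA was hybridised to 1-colour Agilent arrays from 3 groups, with 1 array each: cells given LPS alone, called LPS here, and cells treated with Lactiplantibacillus plantarum LOC1 or LOC3, both strains from tea leaves, and then with LPS. All 3 groups received LPS for 3 h, at a dose that the methods give as 50 ng/mL and the results section as 100 ng/mL. The lactobacilli were given beforehand, for 12 h by the labels and 24 h by the methods, and were washed off before LPS. The comparison with LPS alone asks how each strain alters the response to TLR4 activation. All groups come from 1 cell line, and with 1 array per group differences between conditions carry neither a replicate error nor a p-value. Unchallenged macrophages were not analysed here as an array and enter only through the ratios that the authors deposited.

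Intensities were compared as log2 values less the 75th percentile of each array, which was an intensity of 555 for LPS, 513 for LOC1 and 516 for LOC3. All of the 8 macrophage markers examined were well above background on all 3 arrays. Of 5 T and B cell markers 3, 3 and 2 were above background with LPS, LOC1 and LOC3, of 4 epithelial markers 1, 0 and 0, and of 4 fibroblast markers 3 on each array. The summed intensity was 408133 to 506523 for the macrophage markers, 1217 to 1328 for the T and B cell markers, 107.8 to 166.1 for the fibroblast markers and 16.9 to 32.2 for the epithelial markers, without scaling between the arrays. What these differences in marker signal contribute to the values below was not tested. In bulk RNA, fewer cells of a type and less RNA per cell cannot be told apart. Each gene was represented by its brightest probe, which was well above background on all 3 arrays for 42 members, the exception being Cd63. Probes printed 10 times on each array gave a technical SD of a log2 difference, from the spread of their spots within each array. It was 0.06 for 260 bright probes and 0.26 to 0.31 for 8 dim ones. This SD contains neither the variation between arrays nor that between cultures.

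The promoters were examined first, since the E-box through which TFEB and TFE3 act can be read from sequence alone. RefSeq promoter windows of mouse build GRCm38.p6, each spanning the start site of a gene, were matched for 36 of the 43 members, but not for Npc1, Ctsb, Ctsh, Asah1, Atp6v1b2, Atp6v1c1 and Atp6v1h. Each motif searched reads the same on both strands, and each longer one contains the shorter. The core CACGTG was found in 12 of the 36 members, which is 33.3%, against 8.09% of all 27025 genes with a window and 7.15% of all windows of that length. The longer form TCACGTGA was found in 6 members, or 16.7%, against 1.12% of all genes and 0.974% of windows. The palindrome of 10 bases that has G before and C after TCACGTGA was in 0 of the 36 members and in 0.370% of all genes and 0.326% of windows. A match is a run of letters and not a measured binding site.

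The stretches around the longer form in those 6 members, and around the 4 core motifs of Lamp1, the most in any member's window, are shown because they are where these promoters resemble each other. Capitals mark TCACGTGA, or CACGTG in Lamp1, and each is written 5′ to 3′ on the strand of its gene.

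Lamp1: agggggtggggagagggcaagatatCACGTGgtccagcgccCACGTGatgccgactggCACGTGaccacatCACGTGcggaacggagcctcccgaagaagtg
Mcoln1: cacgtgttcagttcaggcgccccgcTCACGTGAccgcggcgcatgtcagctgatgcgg
Ctsa: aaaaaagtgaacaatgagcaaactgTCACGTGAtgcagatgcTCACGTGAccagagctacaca
Ctsd: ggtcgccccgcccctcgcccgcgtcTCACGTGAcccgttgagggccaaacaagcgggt
Gla: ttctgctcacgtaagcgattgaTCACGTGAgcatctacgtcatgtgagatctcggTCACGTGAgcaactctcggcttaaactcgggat
Atp6v1a: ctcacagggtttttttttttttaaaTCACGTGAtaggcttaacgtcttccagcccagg
Atp6v0d1: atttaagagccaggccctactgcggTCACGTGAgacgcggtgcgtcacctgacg

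The Lamp1 stretch lies at chr8:13159075-13159176 on the plus strand, and its motifs begin 61, 45, 28 and 15 bases before the start site. The stretch of Mcoln1, the calcium channel of the lysosomal membrane, is at chr8:3500448-3500505 on the plus strand, with the motif 46 bases before the start site, and a further CACGTG stands at the left end of the printed stretch, 71 bases before it. That of Ctsa, a carboxypeptidase that also protects other lysosomal enzymes, is at chr2:164833735-164833797 on the plus strand and holds TCACGTGA 13 bases before and again 4 bases after the start site. Gla, which codes for α-galactosidase A, also holds it in 2 copies, beginning 228 and 195 bases before the start site at chrX:134601168-134601255 on the minus strand. In Ctsd, the aspartic protease cathepsin D, at chr7:142387894-142387951 on the minus strand, the motif begins 99 bases before the start site. The pump genes with it are Atp6v1a, at chr16:44139359-44139416 on the minus strand, where it begins 132 bases before the start site, and Atp6v0d1, at chr8:105566040-105566093 on the minus strand, where it begins 4 bases before. The other members with only the core motif were Ctsl, Gaa, Glb1, Naglu and Atp6v0b.

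No member differed by 2-fold between LPS alone and either strain, and most genes of the proton pump were slightly higher with both. Cathepsin L and TFEB were the members higher by over 1.5-fold with both strains, and the mannosidase gene Man2b1 was the one lower by that much. TFEB was so on its brightest probe only, from an Ensembl transcript. With the mean of its detected probes its log2 differences were 0.05 and 0.05. The median of the 43 members was 0.11 on the log2 scale with LOC1 and 0.11 with LOC3, beside medians of 0.00 over 20019 genes and 0.03 over 19790 genes tested. Above these medians, which divide all genes evenly, lay 30 of 43 members with LOC1 and 25 of 43 with LOC3, and the counts were 25 to 32 and 17 to 29 in the other settings. Relative to genes with a mean signal above the 75th percentile, the member median was 0.050 higher with LOC1 and 0.028 higher with LOC3. Less the median of all genes, the LOC3 value was -0.020 with quantile normalization and -0.064 with neither filter nor floor.

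With LOC1, 2.49% of all genes were higher by 2-fold or more than with LPS alone and 3.81% were lower by as much, and 0 of 43 members were in either class. With LOC3 the shares were 2.98% higher and 3.18% lower, again with 0 of 43 members. At 1.5-fold, 2 members were higher and 1 was lower with LOC1, where 7.69% of all genes were higher and 11.4% lower. The same 2 and 1 members passed 1.5-fold with LOC3, where 7.81% were higher and 9.49% lower. With 43 members these counts are too small to set the members apart from all genes. Apart from Cd63, the brightest probe of each member was above the 75th percentile on every array. The shares of all genes also include dim genes, whose technical SD is larger. Both comparisons use the same LPS array, so the values of the strains are not independent of each other. Of all genes past 2-fold, 39.6% were higher with LOC1 and 48.4% with LOC3. With median, quantile or normexp processing in place of the 75th percentile these shares were 65.2, 50.7 and 50.6% with LOC1 and 68.7, 58.0 and 61.5% with LOC3. Scaling to the median of each array raised the median of all genes by 0.22 with LOC1 and 0.18 with LOC3, so the differences of members are read relative to that median.

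**Figure D1:**
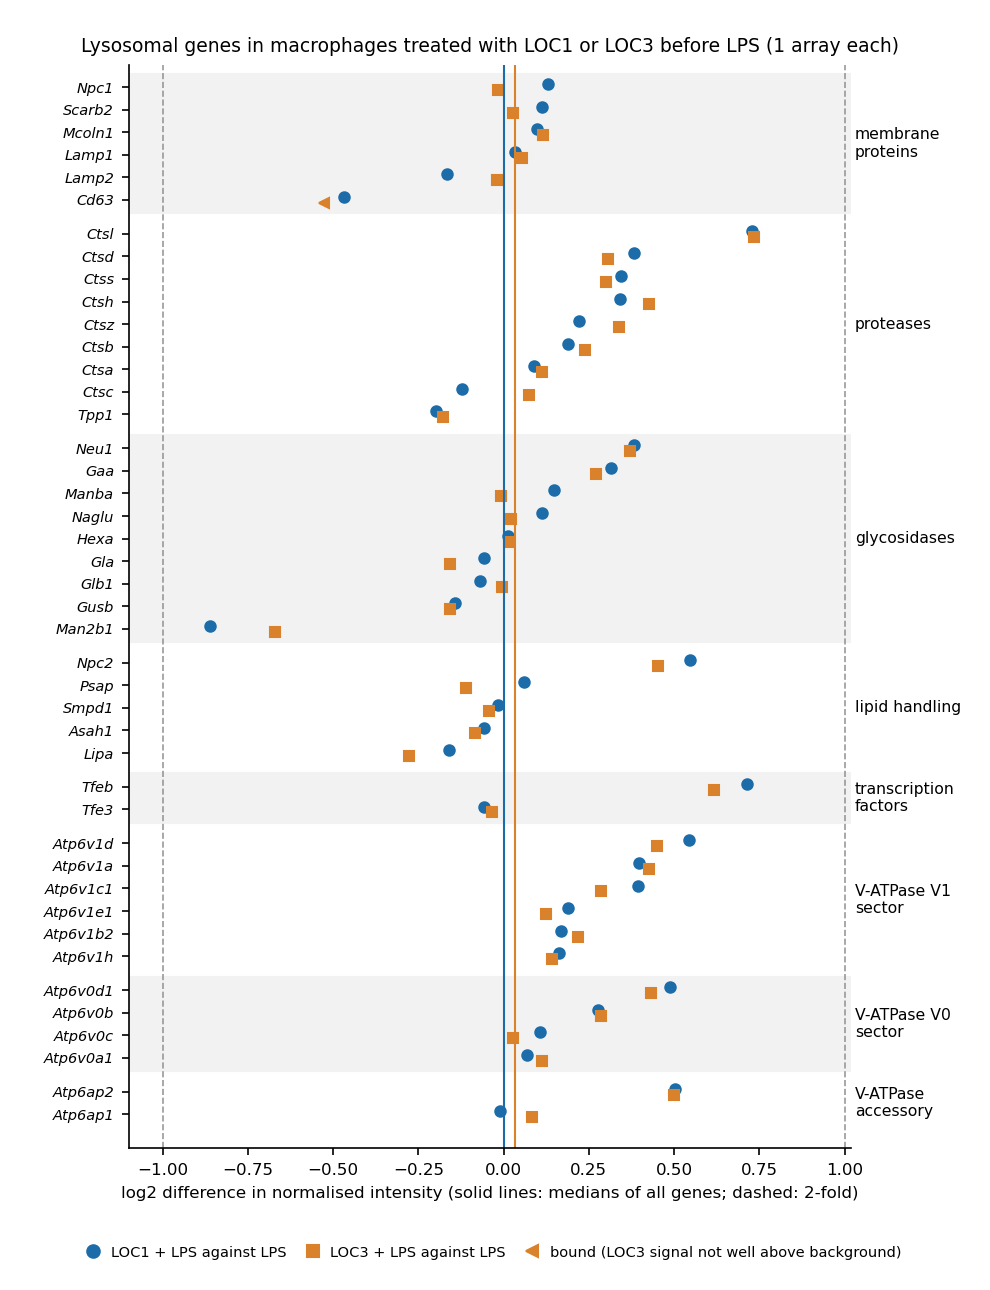
Log2 difference in normalised intensity between macrophages treated with LOC1 (circles) or LOC3 (squares) before LPS and those given LPS alone, for the 43 members by role, with 1 array per group and no error bars. Solid lines are the medians of all genes, 0.00 and 0.03, dashed lines mark 2-fold, and every member lies between the dashed lines, although the triangle of Cd63 is only a bound.

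Among the 12 genes of the proton pump, 11 lay above the median of all genes with LOC1 and 11 with LOC3. Their median difference was 0.23 with LOC1 and 0.25 with LOC3, or 0.23 and 0.22 more than the median of all genes. With LOC3 the latter was 0.13 under quantile normalization and 0.076 with neither filter nor floor. Under the other scalings, filters and probe rules 10 to 12 of the 12 lay above that median with LOC1 and 9 to 11 with LOC3, apart from 7 with LOC3 when neither a filter nor a floor was set. The 31 other members had medians of 0.09 and 0.02. Genes of high signal had higher differences on these arrays: over the genes with a mean signal above the 75th percentile the median was 0.06 with LOC1 and 0.08 with LOC3, and 59.6% and 63.6% of them were above 0. Relative to these genes the pump median was 0.17 higher with each strain.

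All 6 genes of the V1 sector were above the median of all genes with both strains, and remained so in each other setting except with LOC3 and neither filter nor floor, where 4 of 6 did. Atp6v1d, a subunit of the rotating stalk that links ATP splitting to proton transport, gave 3231, 4359 and 4110 as intensities on the LPS, LOC1 and LOC3 arrays. Its differences of 0.54 and 0.45 were the largest of the sector. The catalytic subunit gene Atp6v1a had intensities of 6667, 8114 and 8336 in the same order, with differences of 0.40 and 0.43. The smallest difference with LOC1 belonged to Atp6v1h, whose subunit regulates the pump, with intensities of 13066, 13526 and 13420 and differences of 0.16 and 0.14. For Atp6v1h the mean of its detected probes turned the LOC1 difference to -0.02. The smallest with LOC3 belonged to Atp6v1e1, a gene of the peripheral stalk, with 7486, 7889 and 7590 and differences of 0.19 and 0.12. Atp6v1b2 and Atp6v1c1 lay between, at 0.17 and 0.39 with LOC1 and 0.22 and 0.28 with LOC3.

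In the V0 sector, Atp6v0d1, which couples the membrane ring to the stalk, gave intensities of 4297, 5579 and 5394 on the same arrays, and differences of 0.49 and 0.43. Atp6v0b had differences of 0.28 and 0.29, which became 0.06 and -0.01 with the mean of its detected probes. Atp6v0c, the gene of the proton-carrying ring subunit, had 44216, 44046 and 41946, with differences of 0.11 and 0.03. The latter is just below the median of all genes, and it turned below 0 under quantile normalization, normexp and the 75th percentile of detected probes. Atp6v0a1 had intensities of 11551, 11198 and 11632 and differences of 0.07 and 0.11, of which the former became -0.33 with the mean of its detected probes. The accessory subunits stood apart from each other. Atp6ap2, also known as the prorenin receptor, had intensities of 3981, 5217 and 5238 and differences of 0.50 and 0.50, while Atp6ap1 had 4235, 3886 and 4174 and differences of -0.01 and 0.08.

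**Figure D2:**
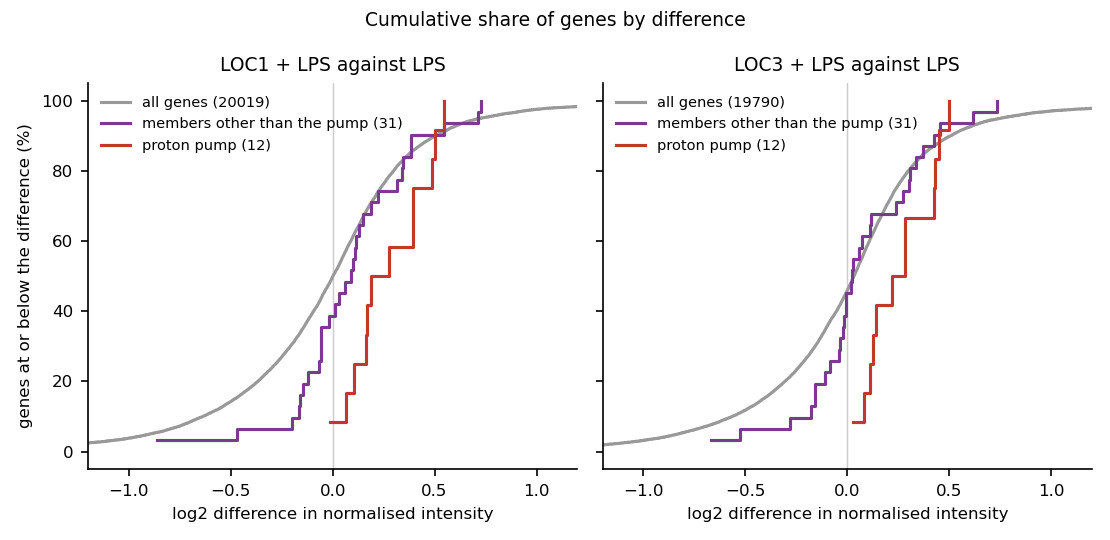
Cumulative share of genes, in percent, at or below each log2 difference in normalised intensity, for LOC1 (left) and LOC3 (right) against LPS alone, over all genes tested (grey), the 12 pump genes (red) and the 31 other members (purple). The red line runs to the right of the grey one over most of its length and starts at -0.01 with LOC1 and 0.03 with LOC3, while the purple line crosses the grey one.

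Of the 9 proteases, 7 lay above the median of all genes with LOC1 and 8 with LOC3, with median differences of 0.22 and 0.30. In the other settings the counts were 6 to 7 and 6 to 8. Ctsl, the cysteine protease cathepsin L, had an intensity of 69831 with LPS alone and of 106912 and 108183 with LOC1 and LOC3. This is 1.65-fold and 1.66-fold higher, a log2 difference of 0.73 and 0.74, from 1 probe, since its other probe stayed near background on every array. Its difference was the highest of the 43 members with both strains. The cysteine proteases Ctss, Ctsh, Ctsz and Ctsb had differences of 0.34, 0.34, 0.22 and 0.19 with LOC1 and of 0.30, 0.43, 0.34 and 0.24 with LOC3. For Ctsh the mean of its detected probes gave -0.07 with LOC1 and 0.09 with LOC3. The intensities of Ctsd were 68280, 82375 and 78568, with differences of 0.38 and 0.31. Tpp1, a serine protease that removes tripeptides, was the lowest of the group, with 18447, 14882 and 15180 and differences of -0.20 and -0.18. Its differences are below the median of all genes under the main scaling and reach 0.02 and 0.01 only when the arrays are scaled to their own medians, which lifts all genes. Ctsa, at 0.09 and 0.11, and Ctsc, at -0.12 and 0.07, were near the median of all genes. The LOC1 difference of Ctsc turned above 0 with the mean of its detected probes.

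The glycosidases, which remove sugars from glycoproteins and glycolipids, showed no common direction. Their median differences were 0.01 with LOC1 and -0.0045 with LOC3, and 5 of 9 and 2 of 9 lay above the median of all genes, with 4 to 5 and 2 to 4 in the other settings. Man2b1, the lysosomal α-mannosidase, had intensities of 21742 with LPS alone and of 11074 and 12720 with LOC1 and LOC3. It was 1.82-fold and 1.59-fold lower, a difference of -0.86 and -0.67 from its single probe, which is the lowest of the members with both strains and far exceeds the technical SD of 0.06. Neu1, the lysosomal sialidase, was the highest glycosidase, with 11101, 13383 and 13358 and differences of 0.38 and 0.37. Gaa, which breaks down glycogen, had 0.32 and 0.27. Gusb was at -0.14 and -0.16 and Gla at -0.06 and -0.16, below the median of all genes with both strains. Hexa, at 0.01 and 0.02, was nearer to it with both strains. Manba at 0.15 and -0.01 and Naglu at 0.11 and 0.02 were nearer to it only with LOC3. With the mean of the detected probes Manba was at -0.46 and -0.79 and Gusb at -0.45 and -0.58. Glb1, the lysosomal β-galactosidase, had intensities of 14813, 13066 and 13743 and differences of -0.07 and -0.0045.

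Of the 5 genes of lipid handling, Npc2 stood apart. This gene codes for the soluble protein that binds cholesterol inside the lysosome, and its intensities were 34885 with LPS alone and 47174 and 44462 with the strains, a difference of 0.55 and 0.45. The lysosomal acid lipase gene Lipa was the lowest, with 9445, 7810 and 7243 and differences of -0.16 and -0.28. Under median scaling the LOC1 difference of Lipa was 0.06, which is below the median of all genes on that scale. Psap, Asah1 and Smpd1, the genes of the saposin precursor and of enzymes that act on ceramide and sphingomyelin, lay between -0.11 and 0.06. Npc1, the membrane partner of Npc2 in cholesterol export, had 1981, 2004 and 1821 and differences of 0.13 and -0.02. With the mean of its detected probes, which include a dim one at -0.59 with LOC1, Npc1 was at -0.23 and -0.37.

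The membrane proteins differed little, apart from Cd63. Lamp1 had intensities of 94756, 89664 and 91608, and Lamp2 had 36014, 29663 and 33066 for its brightest probe, with differences of 0.03 and 0.05 for Lamp1 and of -0.17 and -0.02 for Lamp2. Mcoln1 had 5921, 5860 and 5973 and differences of 0.10 and 0.12, and Scarb2, the receptor that carries β-glucocerebrosidase to lysosomes, had 0.11 and 0.03. Cd63 was measured by 1 dim probe, with intensities of 30.7 and 20.5 with LPS and LOC1 and 15.01 with LOC3, where it was near background. Its difference was -0.47 with LOC1, and with LOC3 it was at least 1.44-fold lower. Both the value and the bound are under 2 technical SDs of dim probes, 0.52 and 0.61.

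The transcription factors gave different readings. Tfe3 had intensities of 8307, 7378 and 7552 and differences of -0.06 and -0.03. The brightest probe of Tfeb gave 580 with LPS alone and 879 and 828 with the strains, which was 1.64-fold and 1.53-fold higher. That probe carries an Ensembl transcript and lies at 47896359 to 47896418 on chromosome 17 of build mm9, upstream of its other probes along the plus strand. A RefSeq probe at 47926621 to 47926680 gave 106.5, 88.8 and 76.8, with differences of -0.15 and -0.37. Another RefSeq probe, at 47924977 to 47925036, was dim with 18.4, 22.0 and 13.8. Its difference with LOC1 was 0.37, within 2 technical SDs of dim probes. With LOC3 its signal was near background, so that 0.21 is only an upper limit and no rise. The remaining RefSeq probe, at 47929089 to 47929148, had 25.8 with LPS and a signal near background with each strain, at least 1.64-fold and 1.21-fold lower. The value of Tfeb therefore rests on which probe stands for it. No RefSeq probe of Tfeb was higher with a strain by more than 2 technical SDs of dim probes.

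Other members also held probes that differed from their brightest one. The 4 lower probes described here were chosen as those without a RefSeq accession and 2-fold lower with at least 1 strain. Their lower values therefore follow from the choice. RefSeq probes could differ too: in Ctsh, brightest probe at 0.34 and 0.43, 1 dimmer RefSeq probe had -0.09 and -0.12 and another -0.02 and 0.13. In Lamp2, a probe on an Ensembl transcript at 35806215 to 35806274 of chromosome X in mm9 had 1083 with LPS and 488.8 and 482.8 with LOC1 and LOC3, a difference of -1.04 and -1.06, whereas the other RefSeq probe of Lamp2 was at 0.22 and 0.18. In Manba such a probe, at 135218372 to 135218431 of chromosome 3, had 130.4, 57.4 and 40.8, or -1.07 and -1.57. In Atp6v0a1 a probe on a cDNA clone, at 100880956 to 100881015 of chromosome 11, had 189.8, 85.0 and 82.1, or -1.05 and -1.11. In Gusb a probe at 130475555 to 130475614 of chromosome 5 had 202.3, 110.5 and 93.8, or -0.76 and -1.01. These 4 genes shared the pattern of a dimmer probe that was lower with both strains while the brightest probe was within 0.17 of 0. The lower values stayed below 0 under each of the 4 other scalings and corrections, but several were then under 2-fold. With normexp all 4 probes were, at -0.96 to -0.50 with LOC1 and -0.98 to -0.62 with LOC3. With median scaling all 4 were with LOC1, at -0.85 to -0.54, and with LOC3 all but that of Manba, at -0.92 to -0.82. With quantile normalization the probe of Lamp2 alone passed 2-fold with LOC1 and that of Gusb alone did not with LOC3. A further Atp6v0a1 probe was well above background only with LOC3, with an intensity of 45.1, which is at least 2.71-fold higher.

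Over all probes well above background on both arrays, 1.65% were 2-fold higher and 3.35% were 2-fold lower with LOC1, and 1.46% and 3.11% with LOC3. Among the 7369 probes without a RefSeq accession 6.27% were 2-fold lower with LOC1, against 2.28% of 20143 probes with one. With LOC3 the shares were 6.86% of 6748 and 1.82% of 19620. Among the member probes 3 of 11 without a RefSeq accession were 2-fold lower with LOC1 and 4 of 9 with LOC3, while 0 of 59 and 0 of 57 with a RefSeq accession were. The share of 2-fold lower values was thus larger in this class over all probes of the arrays too, and what this contributes to the members' divergent probes was not tested.

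**Figure D3:**
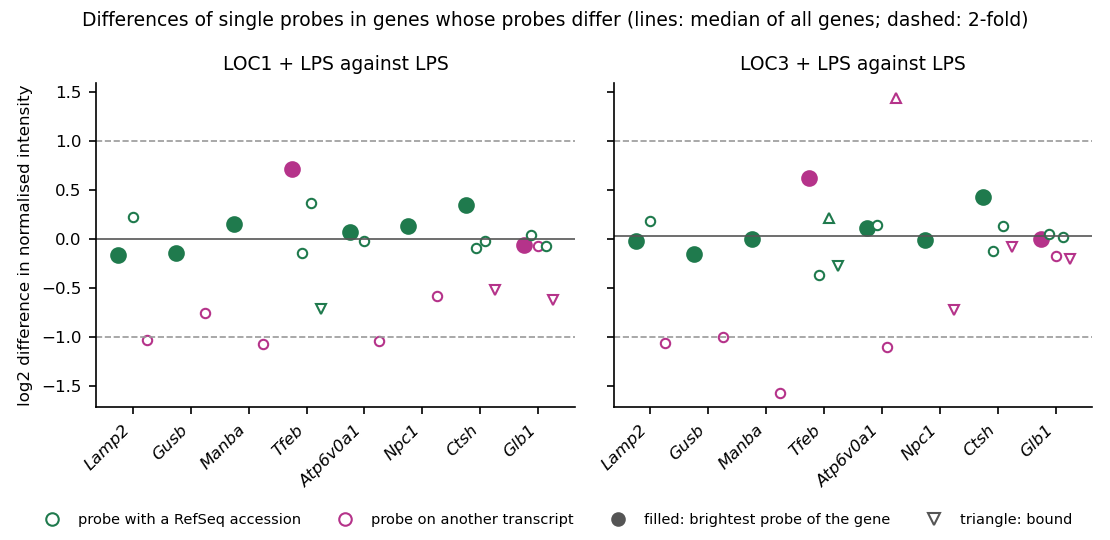
Log2 difference in normalised intensity of each probe measured above background, for 8 members whose probes differ, with LOC1 (left) and LOC3 (right) against LPS alone. Filled symbols are the brightest probe of a gene, triangles are bounds, the line is the median of all genes and dashed lines mark 2-fold: the probes past the lower dashed line, in Lamp2, Manba and Atp6v0a1 with both strains and in Gusb with LOC3, have no RefSeq accession. The upward triangle of Tfeb with LOC3 is an upper limit and not a rise.

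How LPS itself changed the members could be read only in the authors' deposited log2 ratios to unchallenged macrophages, which list a probe only where an array differed by at least 2-fold. With LPS alone, 9.70% of gene names on the array appear as higher and 8.66% as lower. Of the 43 members 4 were listed as higher, Lamp2, Ctsc, Ctsh and Tfeb, and 1 as lower, which was again Tfeb through another probe. A member not listed has no deposited ratio, and this is not a measured absence of change: 30 members had no listed probe in any column.

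For the listed probe of Ctsc, which codes for the dipeptidyl peptidase that activates granule proteases, the deposited ratio was 1.78 for LPS alone, 1.97 for LOC1 and 2.12 for LOC3. The intensities of that probe were 4865, 4997 and 5559, and it is not the brightest Ctsc probe, which has no listed ratio. For Lamp2 the listed probe is the divergent one, with 2.13, 1.13 and 1.10. On this probe both strains lay nearer to unchallenged cells than LPS alone. For Tfeb the brightest probe was listed at 1.17, 1.91 and 1.82, and the dim RefSeq probe at -3.42, -4.13 and -4.15, from an intensity of 25.8 with LPS and signals near background with the strains, whose ratios are therefore not sizes of a change. The probes of Tfeb thus disagreed in direction for LPS as well. Ctsh was listed at 2.13 with LPS through a probe with an intensity of 22.5, whose implied unchallenged signal lies under the limit of detection taken from the LPS array, so that it allows only at least 1.38-fold.

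A further 9 members were listed only for macrophages treated with a strain: Cd63, Ctsl, Ctsz, Glb1, Gusb, Manba, Man2b1, Npc2 and Atp6v0a1. For a probe listed in at least 1 column, the blank cells can be rebuilt from the listed ratio and the intensities. Npc2 was listed at 1.24 with LOC1 and 1.15 with LOC3, and its ratio with LPS alone came out at 0.66. The brightest Ctsh probe, with intensities of 807.9, 947.3 and 1011, was listed at 1.19 and 1.28, with 0.82 for LPS alone. Both genes were thus above unchallenged cells in all 3 groups, with LPS alone under the 2-fold at which a probe is listed. Ctsz, with intensities of 92198, 99381 and 108418, had a listed 1.10 with LOC3, and rebuilt ratios of 0.98 with LOC1 and 0.72 with LPS. Ctsl had a listed 1.005 with LOC3, a rebuilt 0.99 with LOC1 and only 0.23 with LPS alone. Man2b1 was listed at -1.01 with LOC1, with rebuilt ratios of -0.82 for LOC3 and -0.19 for LPS. On the probes of Ctsl and Man2b1, LPS alone thus stayed close to unchallenged cells while both strains were further away. The remaining listed probes had intensities of 202.3 or less with LPS. Among these, the divergent probes of Manba and Atp6v0a1 were listed at -1.71 and -1.71 with LOC1 and -2.21 and -1.77 with LOC3, and rebuilt at -0.67 and -0.70 with LPS alone. The other listed Atp6v0a1 probe went the opposite way, with a listed 1.66 with LOC3. Its intensities were 17.9, 9.86 and 45.1, well above background only with LOC3. The Cd63 probe had -0.46 with LPS and -0.90 with LOC1, both rebuilt, and a listed -1.35 with LOC3, where its signal was near background. A dim Glb1 probe had 24.6 with LPS and signals near background with the strains, 14.8 and 14.8, with listed ratios of -1.02 and -1.02 and a rebuilt -0.43 for LPS. The other listed Glb1 probe was near background on all 3 arrays, with 6.28, 6.67 and 3.91, so that its listed -1.13 with LOC3 gives no size of a change. The divergent Gusb probe was listed at -1.12 with LOC3 and rebuilt at -0.87 with LOC1 and -0.15 with LPS.

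**Figure D4:**
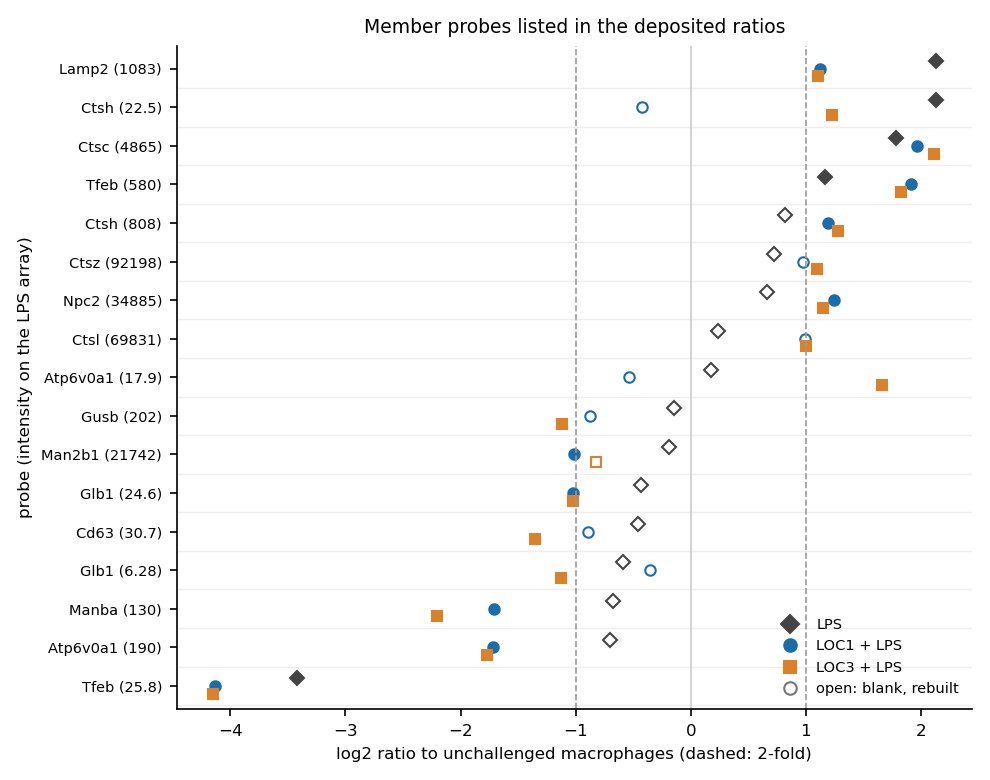
Log2 ratio to unchallenged macrophages of the 17 member probes listed in the deposited ratios, with LPS (diamonds), LOC1 before LPS (circles) and LOC3 before LPS (squares), each labelled by gene and by its intensity on the LPS array. Filled symbols are ratios listed by the authors and open symbols are blank cells rebuilt from the intensities, which lie within the dashed 2-fold lines.

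Between the strains no member passed 2-fold. Between LOC1 and LOC3, 0.800% of 19382 genes were 2-fold higher with LOC1 and 1.83% were 2-fold lower, with 0 of 43 members in either class. The differences ranged from -0.20 for Ctsc, with intensities of 23905 and 27570, to 0.17 for Psap, with 16720 and 14962. The median was 0.01, or 0.03 above the median of all genes. Of the 5 lipid handling genes all 5 had differences above 0, from 0.02 for Smpd1 to 0.17 for Psap, where 45.02% of all genes did. Those of Psap and Lipa lay over 2 technical SDs above the median of all genes, and the other 3 within 2. No member passed 1.5-fold in this comparison.

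Beyond the members, a list of 94 other lysosomal genes was examined, of which 89 could be tested. Its median was 0.06 with LOC1 and 0.08 with LOC3. Of the 89, 0 were 2-fold higher and 1 was 2-fold lower with each strain. That gene was Arsb, the sulfatase that acts on dermatan sulfate, with intensities of 280.6 with LPS and 103.2 and 98.8 with LOC1 and LOC3, a difference of -1.33 and -1.40. At 1.5-fold 2 were higher and 6 lower with LOC1, and 1 higher and 5 lower with LOC3. The lower ones were Arsb, Ctso, Gm2a and Ctns with both strains, Idua and Slc17a5 with LOC1, and Slc38a9 with LOC3. Ctso had differences of -0.95 and -0.73, Gm2a of -0.64 and -0.67, and Ctns of -0.61 and -0.67. The higher ones were Sqstm1, the autophagy receptor p62, with intensities of 65647, 94540 and 92796 and differences of 0.64 and 0.60, and, with LOC1, Igf2r, the receptor that delivers enzymes tagged with mannose 6-phosphate, with 245.8, 358.8 and 243.6 and differences of 0.66 and 0.09. The 31 other hydrolases, 29 of them tested, had medians of -0.06 and -0.05. The 8 tested of the 11 other V-ATPase subunits had medians of 0.10 and 0.15, with 5 of 8 above the median of all genes in each comparison. With LOC3, 1 of these 5 was Atp6v1e2, whose 0.07 is only an upper limit that also enters the median. Its intensity was 20.3 with LPS and, near background, 18.0 with LOC3. The 12 autophagy genes had medians of 0.14 and 0.19.

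Set beside the promoter sequences, the 12 members with CACGTG had median differences of 0.19 with LOC1 and 0.19 with LOC3, and the 24 members with a window but no such motif had 0.06 and 0.03. The members with it ranged from -0.07 to 0.73 with LOC1 and from -0.16 to 0.74 with LOC3, and those without it from -0.86 to 0.71 and from -0.67 to 0.62. The ranges overlap. For the 6 members with TCACGTGA the medians were 0.24 and 0.21, with Atp6v0d1 highest at 0.49 and 0.43 and Gla lowest at -0.06 and -0.16. Lamp1, with 4 copies of the core, was at 0.03 and 0.05. Among the 69 other lysosomal genes with a window, 14 held CACGTG, 4 held TCACGTGA and 2 held the palindrome of 10 bases.

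**Figure D5:**
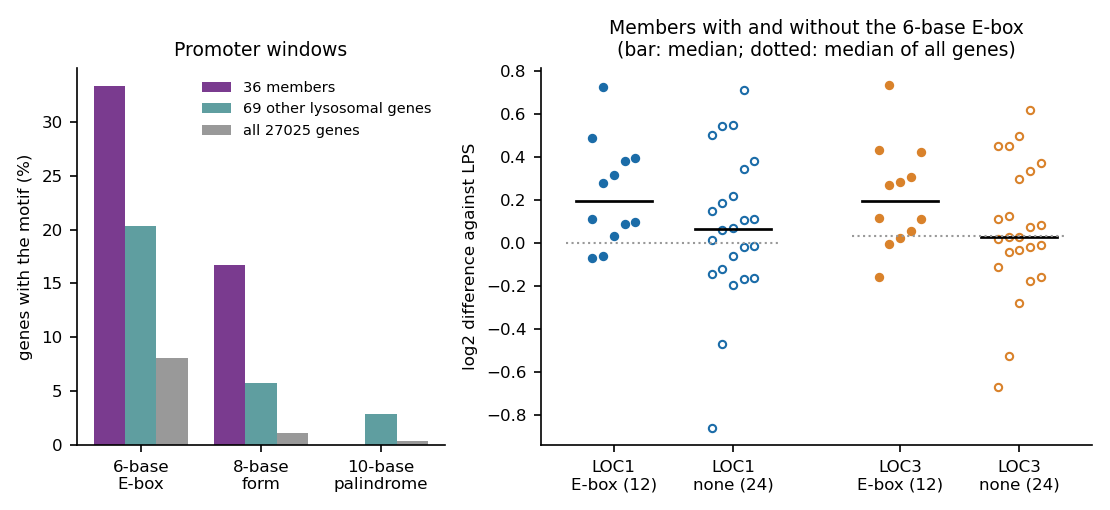
Left, share of genes in percent whose promoter window holds CACGTG (6-base E-box), TCACGTGA (8-base form) or the palindrome that extends it (10-base palindrome), for 36 members, 69 other lysosomal genes and all 27025 genes. Right, log2 difference against LPS of the members with the core motif (filled, 12) and without it (open, 24), where the bars are medians of 0.19 and 0.06 with LOC1 and 0.19 and 0.03 with LOC3 and the points of both classes overlap.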

How the data were processed

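RNA of RAW264.7 macrophages from 3 groups was hybridised to 1-colour Agilent mouse arrays, 1 per group. Spot intensity was background-corrected by the authors with Feature Extraction, version 12.0.3.1 per the file headers, and deposited without normalization between arrays. The authors also deposited log2 ratios to unchallenged macrophages, made in GeneSpring, in which values under 2-fold are blank. The submitters' processing notes also name limma and R 3.2.5.

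Here, control and outlier spots were left out, spots of a probe were averaged, and log2 intensities were taken relative to each array's 75th percentile. A gene is its brightest probe and was tested if 1 or both of the arrays compared had it well above background. A dimmer signal was raised to the lowest signal well above background (intensities of 16.3, 14.5 and 19.8 for LPS, LOC1 and LOC3), which makes its difference a bound. Signals well above background were found for 51.9, 50.4 and 47.8% of the 56605 probes. The number of arrays limits the precision. The members and lists were chosen with earlier results of these data known. Values on every array are given for members listed in the deposited ratios, the transcription factors and the highest and lowest member of each role. Blank ratios were rebuilt for the 13135 listed probes, and all 12931 rebuilt cells lay under 2-fold. Promoter windows, from 250 bases before to 50 after the start, are RefSeq's. Positions of probes are given on mm9, as in the files. Python 3.11.15, numpy 2.4.6, pandas 2.3.3, matplotlib 3.10.9, R 4.3.3 and limma 3.58.1 (normexp, offset 50) were used, and the calling was tested on simulated data. Alternatives were median scaling, the 75th percentile over detected probes, quantile normalization, normexp, detection on both arrays, no filter, the mean of detected probes, outliers kept, a 1.5-fold threshold, bounds on the deposited ratios and the brightest probe only.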

Additional observations from a re-analysis of the deposited data

How the results depend on the processing

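No member passed 2-fold in any of the 3 comparisons under any of the 8 other scalings, filters and probe rules, and 3 passed 1.5-fold in LOC1 against LPS and 3 in LOC3 against LPS, with 0 in LOC1 against LOC3. The member median less the median of all genes, 0.11 with LOC1, was 0.07 to 0.15 under these and 0.050 against genes above the 75th percentile. With LOC3 it was 0.08 and turned to -0.020 with quantile normalization and -0.064 with no filter and no floor, so its direction depends on both choices. Against genes above the 75th percentile the LOC3 value was 0.028. In LOC1 against LOC3 it was 0.03, and 0.11 with no filter and no floor. The proton pump median, 0.23 with LOC1, was 0.17 with quantile normalization and 0.17 against genes above the 75th percentile. With LOC3 it was 0.22, then 0.13 with quantile normalization and 0.076 with no filter and no floor, where 7 of 12 pump genes lay above the median of all genes instead of 11. The cause of these shifts was not tested. The comparison with genes above the 75th percentile and the results on the pump were chosen after seeing the data. In each alternative 0 to 8 members changed side of the median of all genes with LOC1 and 0 to 8 with LOC3. Under median scaling, which moves all genes alike, 0 did. Of the 4 members listed as changed by LPS, 3 remained when signals were raised to the limit of detection and 1, Tfeb, with the brightest probe only. The methods' t-test was not run, because it needs more than 1 array per group. No paired analysis was possible because each group holds 1 array.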
